A study of Mus musculus with 56 samples.

Results

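Sprr2a1, Sprr1a, Ppl and Fabp5 are keratinocyte genes whose transcripts were among the lowest, treated over untreated, after late exposure of mouse keratinocytes to transforming growth factor β1 (TGF-β1). They are 4 of the 6795 named genes measured, were taken by the gene symbol of their probes, and had 1 probe each. The genes were chosen by their low ratios at 24 and 48 h in Balb/c cells, so those responses are given as a description without a test. No threshold was involved in the choice.

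Each 2-colour array set RNA of TGF-β1-treated keratinocytes against RNA of untreated keratinocytes of the same kind, with TGF-β1 at 1 ng/ml. Keratinocytes of newborn Balb/c mice were either primary cultures or "ras" cultures, which had been transduced with a replication-defective retrovirus carrying Ha-ras, and both were treated for 1, 6, 24 or 48 h. With treated RNA labelled in Cy5 there were 6, 7, 6 and 3 arrays of primary cells and 6, 7, 6 and 4 arrays of ras cells at these times. Smad3 wild type and Smad3-/- keratinocytes, of the strain labelled C57B1/SVJ and again as primary and ras cultures, were treated for 48 h, with 1 such array for each genotype and culture. A further 7 arrays carried the treated RNA in Cy3: 5 of Balb/c cells and 2 of Smad3-/- cells. The labels do not say that arrays of a group came from separate cultures, so p-values may measure only the spread between repeat hybridisations. A ratio gives no level of a transcript, so the keratinocyte identity of the cells could not be checked by the presence of markers.

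Keratinocytes that leave the basal layer of the epidermis build a cornified envelope, a sheet of protein laid down under the plasma membrane and cross-linked by transglutaminases. Small proline-rich proteins such as Sprr2a1 and Sprr1a are precursors that become cross-linked into this sheet, and their genes lie in the epidermal differentiation complex, a cluster that also holds loricrin, filaggrin, late cornified envelope and S100 genes. Periplakin, the product of Ppl, is a plakin that ties the envelope to desmosomes and keratin filaments. Fabp5 encodes the epidermal fatty acid binding protein, a small cytoplasmic carrier of long-chain fatty acids, and is not itself an envelope protein. TGF-β1 halts the proliferation of keratinocytes and signals through receptor kinases to Smad2 and Smad3.

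The RefSeq sequences upstream of the small proline-rich genes are shown because both genes lie in that cluster and had low ratios in the same groups. RefSeq windows matched these 2 of the 4 genes, and each window below is the 250 bases before the annotated start in GRCm38.p6, written 5′ to 3′ on the strand of the gene. Sprr2a1 lies on the plus strand, chr3:92215585-92215834, and Sprr1a on the minus strand, chr3:92485882-92486131. Capitals mark exact matches to TGANTCA (the AP-1 site), TATAAA (the TATA box) and CAGAC (the core of the SMAD element).
Sprr2a1: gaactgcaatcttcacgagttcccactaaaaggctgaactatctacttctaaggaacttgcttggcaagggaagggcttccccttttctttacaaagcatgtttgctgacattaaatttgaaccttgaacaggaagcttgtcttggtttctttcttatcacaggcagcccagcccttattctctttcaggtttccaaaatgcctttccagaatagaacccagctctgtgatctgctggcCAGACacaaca
Sprr1a: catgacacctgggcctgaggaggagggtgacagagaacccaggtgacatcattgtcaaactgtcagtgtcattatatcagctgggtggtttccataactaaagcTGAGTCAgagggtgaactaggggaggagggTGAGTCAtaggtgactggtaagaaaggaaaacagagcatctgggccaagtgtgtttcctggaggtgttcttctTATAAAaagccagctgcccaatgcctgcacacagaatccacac
The motifs searched on both strands were these 3, the octamer ATGCAAAT and CACCC, the core of the element bound by Klf factors. The Sprr1a window held TGAGTCA at -146 and at -116 from the start and TATAAA at -43. It also held 4 matches to CACCC, all read as GGGTG and left in lower case, of which the one at -119 overlaps the AP-1 match at -116. In the Sprr2a1 window the 1 match was CAGAC at -11. Of 32851 RefSeq windows of this length, 6.75% held TGANTCA, 12.4% TATAAA, 1.6% ATGCAAAT, 42.2% CAGAC and 52% CACCC, and 0.338% held 2 or more AP-1 matches. These matches are letters in a window, and no array value bears on binding there.

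Values below are log2 ratios of treated over untreated RNA after each array was centred on its median. The log base and the direction are not stated in the sources used here. Base 2 was assumed, and treated over untreated is likely from the order of the channels. Positive medians were found for a list of 11 measured TGF-β target genes in each of the 8 Balb/c groups (0.15 to 0.86). That list was chosen with earlier results of these data known, so its medians are no independent check of the direction. The spread of all features differed between arrays, with SDs from 0.194 to 1.81, and was widest on ras 24 h replicate 1 and primary 6 h replicate 1. The number of arrays limits the precision, as no spot brightness was used. In a culture, fewer cells that express a gene and less of its RNA in each cell cannot be told apart.

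Sprr2a1 had the lowest mean of all named genes in primary cells at 24 h. Over the 6 arrays its ratio ran from -3.61 through a median of -2.28 to -1.64, with a mean of -2.45 (SD 0.66, n = 6), or 18.2% of the untreated amount if the base is 2. Every one of these arrays lay far below 0. In ras cells at 24 h the ratio ran from -1.62 through -1.22 to -0.53 (mean -1.13, SD 0.38, n = 6), or 45.5% of the untreated amount. At 48 h the 3 primary arrays read -1.80, -3.15 and -2.03 (mean -2.33, SD 0.72) and the 4 ras arrays -1.76, -3.07, -1.80 and -2.27 (mean -2.23, SD 0.61). The groups at 48 h overlapped, and in both 1 array stood near -3.1. A cDNA probe for Sprr2a1 may also bind RNA of its near-identical Sprr2a copies, so its values may be shared among them.

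Sprr1a, the other small proline-rich precursor, was also below 0 on every late array, from -3.52 to -0.16, with a wider spread at 24 h. In primary cells at 24 h it ran from -3.52 through -1.28 to -0.93 (mean -1.71, SD 1.02, n = 6), and in ras cells from -1.78 through -1.65 to -0.16 (mean -1.42, SD 0.63, n = 6). The primary spread came from replicates 5 and 6, at -2.31 and -3.52, and the ras value nearest 0 was replicate 6. At 48 h the primary arrays read -1.61, -1.73 and -1.14 (mean -1.49, SD 0.31, n = 3) and the ras arrays -2.12, -1.85, -0.83 and -2.59 (mean -1.85, SD 0.75, n = 4). The groups overlapped at both times, and the means stood between 27.8% and 37.4% of the untreated amount.

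Ppl had the shallowest ratios of the 4 genes, and in primary cells also the tightest. In primary cells at 24 h it ran from -1.17 through -1.12 to -0.66 (mean -1.03, SD 0.20, n = 6), and at 48 h the 3 arrays read -1.07, -1.17 and -1.14 (mean -1.12, SD 0.05). In ras cells at 24 h it ran from -1.16 through -0.99 to 0.03 (mean -0.81, SD 0.45, n = 6). The value of 0.03, on replicate 5, was the one reading above 0 among the late Cy5 values of the 4 genes. At 48 h the ras arrays read -0.83, -1.28, -0.48 and -0.72 (mean -0.82, SD 0.34, n = 4). The group means corresponded to between 45.9% and 56.9% of the untreated amount, and primary and ras values overlapped at both times.

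Fabp5 ratios were below those of Ppl in each late group mean, with the lowest mean in primary cells at 24 h. In primary cells at 24 h they ran from -2.62 through -2.29 to -1.19 (mean -2.05, SD 0.65, n = 6), and in ras cells from -1.87 through -1.56 to -1.14 (mean -1.56, SD 0.31, n = 6). At 48 h the primary arrays read -0.38, -2.58 and -1.63 (mean -1.53, SD 1.10, n = 3). These were widely spread, and the mean was -2.10 without replicate 1 and -1.0 without replicate 2. The ras arrays at 48 h read -1.60, -2.50, -1.93 and -1.83 (mean -1.97, SD 0.38, n = 4), all within the primary range. The means stood between 24.2% and 34.7% of the untreated amount.

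**Figure D1:**
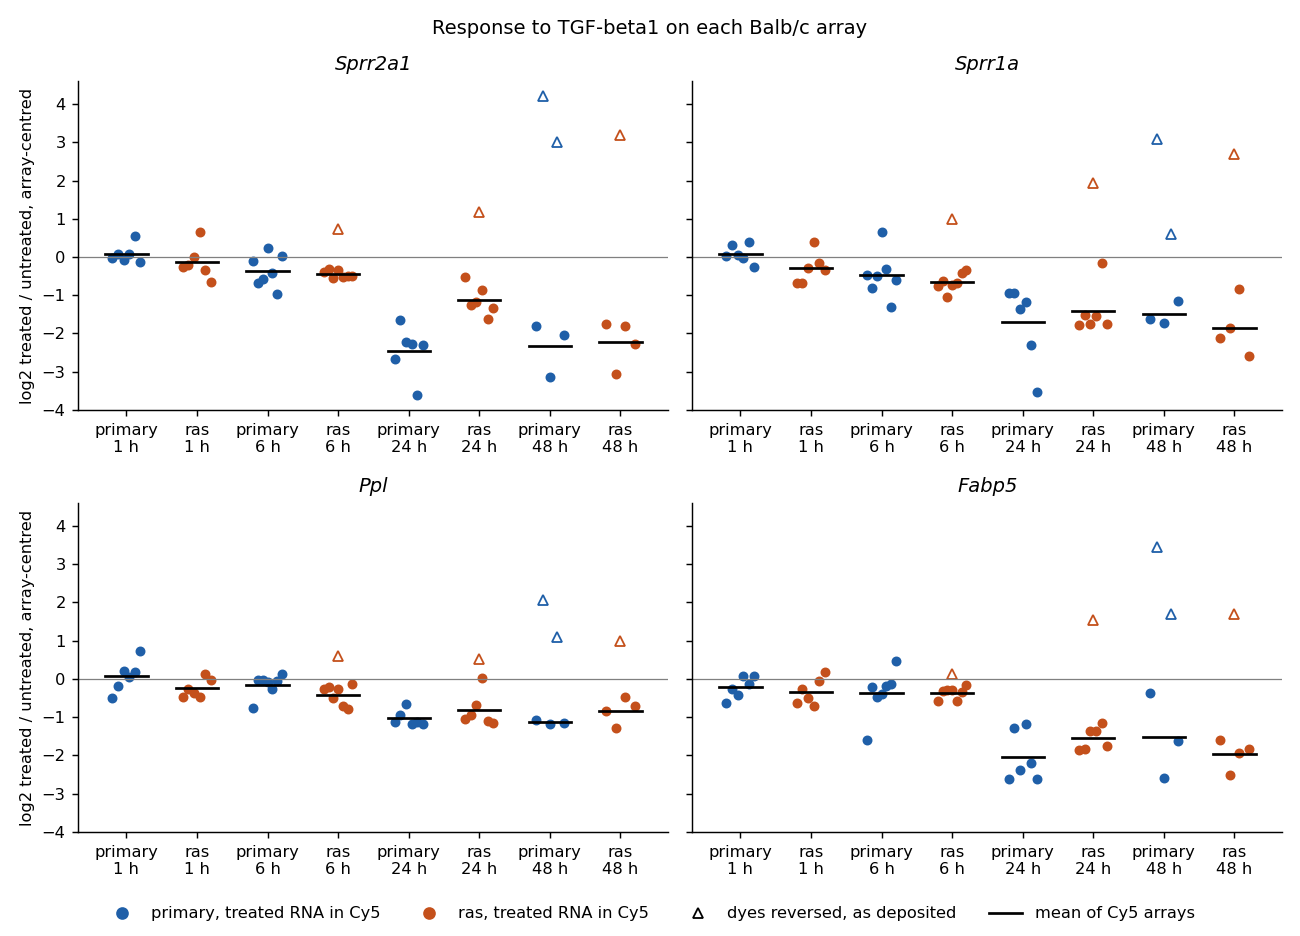
Log2 ratio of treated over untreated RNA for the 4 genes, one panel per gene, in Balb/c primary and ras keratinocytes by hours of TGF-β1; filled points are arrays with treated RNA in Cy5, lines their group means, and open triangles the Cy3 arrays as deposited. Filled points scatter around 0 at 1 h, all lie below 0 in ras cells at 6 h, and at 24 and 48 h lie below 0 except 1 for Ppl (0.03), while every triangle lies above 0.

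Among the 6795 named genes ordered from the lowest mean, Sprr2a1 was number 1, Fabp5 number 3, Sprr1a number 6 and Ppl number 51 in primary cells at 24 h. In ras cells at 24 h, where many features had lower means with larger SEs, they stood at 272, 181, 212 and 403 in the same order. At 48 h primary cells had them at 31, 100, 108 and 195, and ras cells at 7, 24, 33 and 301. Averaged over the 4 late groups, Sprr2a1 came first at -2.04, Fabp5 number 4 at -1.77, Sprr1a number 10 at -1.62 and Ppl number 78 at -0.95. For scale, 1.01% of all 8905 features were called lower and 0.348% higher in primary cells at 24 h, against 6.67% and 3.84% in ras cells. At 48 h the shares called lower and higher were 3.49% and 5.11% for the primary group, against 1.61% and 1.9% for the ras group. A feature is called where its adjusted p is under 0.05 in limma with Benjamini-Hochberg adjustment over the 8905 features. As these responses chose the genes, nothing is read from their place in these shares.

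Whether the 4 genes had moved before 24 h was tested on the arrays of 1 and 6 h. The ratios at 24 and 48 h chose the genes, but with earlier results of these data known. So the test may not be fully independent of the choice. At 1 h the mean ratios in primary cells were 0.09 for Sprr2a1, 0.08 for Sprr1a, 0.08 for Ppl and -0.21 for Fabp5, and in ras cells -0.14, -0.29, -0.25 and -0.33. No gene of the 4 was called in either culture, where 0.0112% and 0.0786% of all features were called. At 6 h the means in primary cells were -0.36 for Sprr2a1, -0.48 for Sprr1a, -0.15 for Ppl and -0.36 for Fabp5, with 0 of 4 called and 0.0112% of all features called. Arrays on both sides of 0 were present for each gene in these 3 groups.

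In ras cells at 6 h all 28 values, 7 arrays for each gene, lay below 0. The 4 genes share these 7 arrays, and the share of all features below 0 on each of them was not computed. The ras minus primary differences at 6 h were -0.08 for Sprr2a1, -0.19 for Sprr1a, -0.26 for Ppl and -0.01 for Fabp5, and none was called. Sprr2a1 ran from -0.56 through -0.49 to -0.31 (mean -0.44, SD 0.10, n = 7), a narrow band. Sprr1a ran from -1.05 through -0.69 to -0.36 (mean -0.66, SD 0.23), Ppl from -0.79 through -0.27 to -0.13 (mean -0.41, SD 0.26) and Fabp5 from -0.58 through -0.31 to -0.17 (mean -0.36, SD 0.15). None of the 4 was called, with limma adjusted p-values of 0.223, 0.126, 0.0778 and 0.434, against 1.73% of all features. The unadjusted p-values were 0.0125, 0.00401, 0.00169 and 0.0553. The calls depended on the fit: Sprr1a passed when arrays were weighted by quality (adjusted p = 0.00457), scaled to one spread (0.0459) or restricted to the compared groups (0.0184), Sprr2a1 passed under the first and the last of these (0.0222 and 0.0453), and Ppl under weighting (0.0344) and without the 2 widest arrays (0.0443). Over all alternatives the adjusted p ran up to 0.955 for Sprr2a1, 0.865 for Sprr1a and 0.826 for Ppl.

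Whether ras cells answered differently from primary cells was asked at each time. At 24 h Sprr2a1 was less reduced in ras cells, with a difference between the means of 1.32 on the log2 scale (SE 0.26). The lowest ras array, -1.62, lay just above the highest primary array, -1.64. The share of all features without overlap between these groups was not computed. The gene was chosen by these ratios, so the difference is a description, and the fit's call of Sprr2a1, 1 of 4 features called (0.0449% of 8905), is not read as a test. That call was also lost when primary replicate 1, 3 or 5 or ras replicate 1, 2, 3, 5 or 7 was left out, with only the arrays of both compared groups, without the 2 widest arrays, and with the Cy3 arrays added as deposited or turned in sign without a dye term. The difference stayed between 1.09 and 1.98 in every alternative run.

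Arrays of both cultures with neighbouring array numbers in the labels gave 5 comparisons at 24 h, and the ras minus primary differences of Sprr2a1 were 1.05, 0.37, 1.40, 1.99 and 0.95. Ppl likewise had one sign throughout at 3 other times, with -0.58, -0.08, -0.53, -0.04 and -0.75 at 1 h, -0.48, -0.23, -0.43, -0.74 and -0.25 at 6 h, and 0.24, 0.70 and 0.42 at 48 h. At 24 h the Ppl differences were -0.01, 0.02, 1.20, 0.02 and 0.00. Sprr1a and Fabp5 had both signs at each time, and Sprr2a1 had both at 1, 6 and 48 h. The share of all features with one sign throughout was not computed, so nothing is read from these runs.

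For the other 3 genes the difference between ras and primary means at 24 h was 0.29 for Sprr1a (SE 0.33), 0.22 for Ppl (SE 0.19) and 0.49 for Fabp5 (SE 0.28). At 48 h it was 0.10 for Sprr2a1 (SE 0.34), -0.35 for Sprr1a (SE 0.44), 0.30 for Ppl (SE 0.25) and -0.44 for Fabp5 (SE 0.37). These too are descriptions of the ratios that chose the genes, and for scale 0.202% of all features were called at 48 h. The arrays of 1 and 6 h allowed a test, with the limit on the choice of genes given above. There limma called none of the 4 genes and 0 features in all (0%), with 371 and 409 at an unadjusted p under 0.05.

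**Figure D2:**
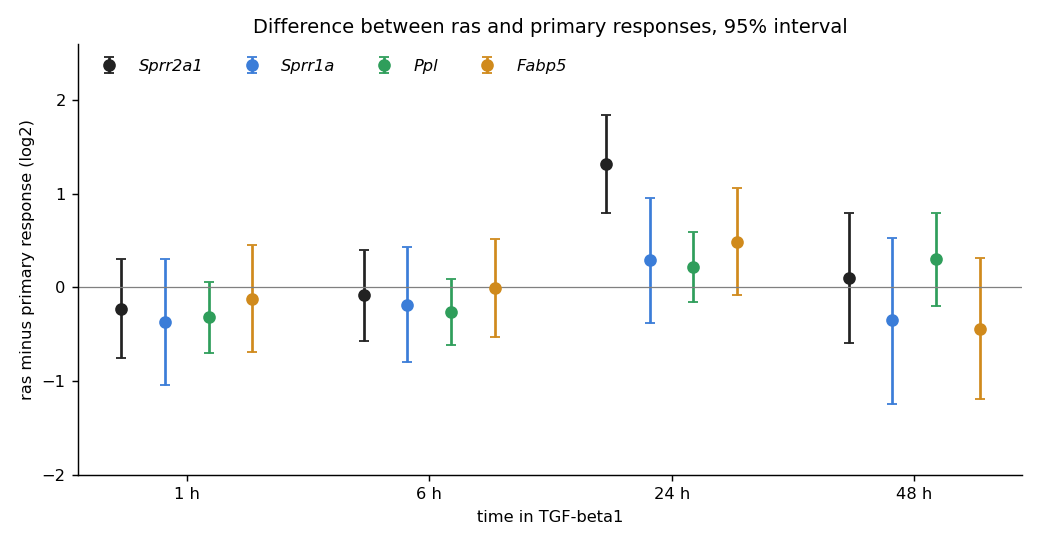
Difference between the mean log2 ratios of ras and primary Balb/c cells for each of the 4 genes by hours of TGF-β1; points are the fitted differences and bars their 95% intervals. Sprr2a1 at 24 h stands highest at 1.32, and the 24 and 48 h points describe ratios that chose the genes and are no test.

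Between 24 and 48 h the mean of Sprr2a1 in ras cells changed by -1.09 (SE 0.29). The highest of the 4 arrays at 48 h, -1.76, lay below the lowest of the 6 at 24 h, -1.62. The share of all features separated in this way was not computed. The differences for Sprr1a, Ppl and Fabp5 in ras cells were -0.43, -0.01 and -0.41. Both times chose the genes, so these differences are given without a test. Of all features, 0.0112% were called between these times in ras cells and 1.66% in primary cells. The Sprr2a1 difference ran from -1.28 to -0.34 over the alternatives.

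The Smad3 wild type and knockout arrays ask whether these responses need Smad3, but with 1 Cy5 array for each genotype and culture their spread was assumed to be that of the other groups. Sprr2a1 was above 0 on all 4, at 0.33 in wild type primary cells, 0.45 in wild type ras cells, 0.50 in knockout primary cells and 0.55 in knockout ras cells. So the low Sprr2a1 ratio of Balb/c cells at 48 h did not appear on the wild type arrays of this strain. Sprr1a read 0.00 and -1.31 in wild type primary and ras cells and 1.89 and 0.40 in the knockout cells. Ppl read 0.03 and -0.33 in the wild type and 0.98 and 0.03 in the knockout, and Fabp5 -0.12 and -0.48 in the wild type and 0.39 and 0.51 in the knockout. Balb/c means at 48 h for Sprr1a, Ppl and Fabp5 were -1.49, -1.12 and -1.53 in primary cells. In ras cells they were -1.85, -0.82 and -1.97. Every wild type reading lay above its Balb/c mean, and only Sprr1a in ras cells lay within the Balb/c Cy5 range. Where the wild type lacks the low ratio, the knockout cannot show a need for Smad3. For each gene and each culture the knockout Cy5 array was the higher one, on arrays of which there is no second copy in the same dye orientation. The 4 genes share these arrays, and the share of all features higher in the knockout in both cultures was not computed. So nothing is read from this run. Strain and experiment differ together between these arrays and the Balb/c arrays and cannot be told apart.

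Over both cultures the knockout minus wild type difference was 1.80 for Sprr1a (SE 0.57, 95% interval 0.64 to 2.95, limma adjusted p = 0.137), 0.75 for Fabp5 (-0.23 to 1.74), 0.66 for Ppl (0.00 to 1.31) and 0.13 for Sprr2a1 (-0.78 to 1.04). None of the 4 was called over both cultures, in primary cells alone or in ras cells alone, where 1.74%, 1.33% and 1.12% of all features were called. Sprr1a passed with array weights (adjusted p = 0.00468), and over the alternatives its difference ran from 1.07 to 1.80 with adjusted p-values up to 1. Of the 23 other measured cornified envelope and differentiation genes listed for this work, 14 were above 0 on the wild type primary array (median 0.07) and 22 on the knockout primary array (median 0.85). In ras cells 10 of 23 (median -0.32) and 14 of 23 (median 0.15) were. The knockout primary array also had the widest values of the 4 (SD 0.965 against 0.667 to 0.703), and the part of this in the result was not tested.

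Smad3 itself had a ratio of -0.83 and -0.31 in wild type primary and ras cells and -2.79 and -0.68 in the knockout cells. Both channels of an array hold RNA of one genotype, so this ratio does not check the knockout. The 11 TGF-β target genes had medians of 0.74 and 0.43 on the wild type arrays and 0.71 and 0.51 on the knockout arrays. On the Cy3 arrays of the knockout, taken as deposited, Sprr2a1 read 0.12 and 0.35 in primary and ras cells, Sprr1a -0.89 and 0.38, Ppl 0.33 and 0.98, and Fabp5 0.17 and 0.37. Turned in sign these Cy3 readings would oppose the Cy5 array of their group except for Sprr1a in primary cells.

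**Figure D3:**
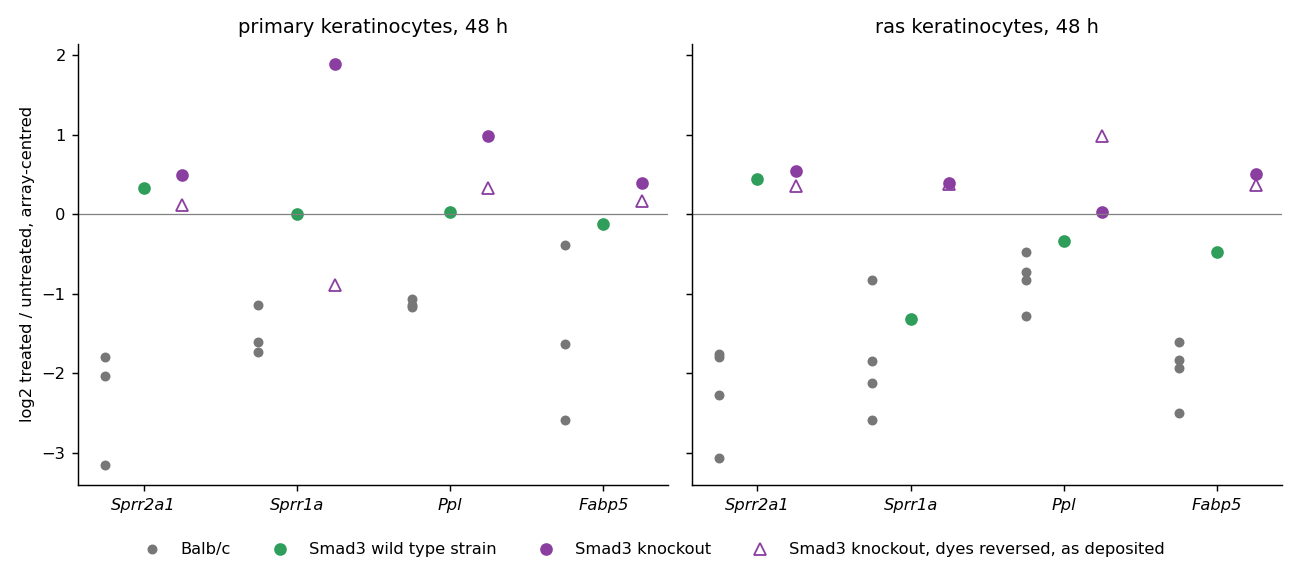
Log2 ratio of treated over untreated RNA at 48 h for the 4 genes in primary (left) and ras (right) cells, one point per array: Balb/c Cy5 arrays in grey, Smad3 wild type and knockout in colour, and the Cy3 knockout arrays as open triangles, as deposited. Sprr2a1 is above 0 on every array of the Smad3 strain as deposited and below 0 on every Balb/c Cy5 array. The Balb/c Cy3 arrays, not drawn, read 4.21 and 3.00 (primary) and 3.20 (ras) for Sprr2a1 as deposited. Turned in sign, the Cy3 knockout readings of Sprr2a1 would be -0.12 (primary) and -0.35 (ras). Sprr1a on the Smad3 strain arrays runs from -1.31 in wild type ras cells to 1.89 in knockout primary cells.

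The 5 Balb/c arrays with treated RNA in Cy3 had the opposite sign for these genes. All 20 values of the 4 genes were above 0 as deposited, from 0.121 to 4.21, while 1 of 80 values on the Cy5 arrays of the same groups was. Sprr2a1 read 0.74 in ras cells at 6 h, 1.18 in ras cells at 24 h, 4.21 and 3.00 in primary cells at 48 h and 3.20 in ras cells at 48 h. Sprr1a on the same arrays read 0.99, 1.93, 3.09, 0.59 and 2.69, Ppl 0.60, 0.51, 2.06, 1.09 and 0.99, and Fabp5 0.12, 1.53, 3.46, 1.69 and 1.69. The labels name these arrays as reversed but do not say whether the sign had been turned. Over all features the sign was not settled, with correlations with the Cy5 arrays of the group between -0.065 and 0.129 for the 5 Balb/c arrays. The knockout Cy3 arrays, as deposited, correlated at 0.482 (primary) and 0.412 (ras) with the Cy5 array of their group. Of the features called in each group, 92.9% had the opposite sign on the ras 6 h array, 45.8% on the ras 24 h array, 58.6% and 62.4% on the primary 48 h arrays and 40.1% on the ras 48 h array.

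For this reason the Cy3 arrays entered no test. Taking the difference of the Cy5 and Cy3 means and dividing it evenly gives a value in which a constant dye bias cancels, if the Cy3 sign was not turned. On that reading Sprr2a1 stood at -0.59 in ras cells at 6 h, -1.16 in ras cells at 24 h, -2.97 in primary cells at 48 h and -2.71 in ras cells at 48 h. Sprr1a stood at -0.83, -1.67, -1.67 and -2.27 in these groups, Ppl at -0.51, -0.66, -1.35 and -0.91, and Fabp5 at -0.24, -1.54, -2.05 and -1.83. As every Cy5 mean was below 0 and every Cy3 value above 0 in these groups, the sign of these values was fixed. In the knockout the same calculation gave, for primary and ras cells, 0.19 and 0.10 for Sprr2a1, 1.39 and 0.01 for Sprr1a, 0.33 and -0.48 for Ppl, and 0.11 and 0.07 for Fabp5. These values lay below the wild type Cy5 array for Sprr2a1 in both cultures and for Ppl in ras cells, and above it otherwise. The wild type had no Cy3 array, so a dye bias is not cancelled on its side.

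Of 23 measured genes of the envelope and differentiation list beyond the members, 3 were called lower in primary cells at 24 h and 2 in ras cells, beside 1.01% and 6.67% of all features. At 48 h 4 were called lower in primary and 3 in ras cells, beside 3.49% and 1.61% of all features, and 0 were called higher in each group. Their medians were -0.31, -0.24, -0.10 and -0.38, beside medians over all features of -0.020, 0.007, -0.046 and -0.023. Il1f5, which encodes the interleukin 36 receptor antagonist, was called in all 4 groups, at -1.81 (SE 0.27, adjusted p = 6.38e-05), -2.14, -1.56 and -1.97. Serpinb2 and Serpinb5, both serine protease inhibitor family genes, were called in primary cells, with -0.88 and -0.72 at 24 h and -1.45 and -1.17 at 48 h. In ras cells they read -0.49 and -0.47 at 24 h and -0.41 and -0.42 at 48 h without a call. Klk7, a protease that cleaves corneodesmosomes, was called in ras cells, at -0.84 and -1.14. In primary cells it read -0.78 and -0.16 without a call. The ras minus primary difference was not called at either time for any of these genes. Krt10, the keratin of the suprabasal layers, was called at 48 h, at -1.31 in primary and -0.96 in ras cells.

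Loricrin and filaggrin did not pass in any late group. Loricrin (Lor) read -0.40, 0.04, -0.87 and -0.25 in primary 24 h, ras 24 h, primary 48 h and ras 48 h, and filaggrin (Flg) -0.51, -0.37, 0.19 and -0.29. These counts moved with single arrays: without primary 24 h replicate 6 the count was 1 and without replicate 4 it was 5, without ras 24 h replicate 1 or 7 it was 1 and without replicate 3 it was 4. Without primary 48 h replicate 2 it was 1 and without replicate 1 it was 2, and without ras 48 h replicate 1 it was 1.

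In the order of RefSeq genes the epidermal differentiation complex runs over 101 genes from S100a1 to S100a10, of which 17 were measured. Of the 15 that are not members, 0 were called lower in any of the 4 late groups, beside 1.01% to 6.67% of all features. Among so few genes a count of 0 lies near these shares. The medians of the 15 were -0.30 in primary and -0.02 in ras cells at 24 h, and 0.19 and -0.22 at 48 h. S100a4 (2.38, SE 0.30) and S100a1 (0.83, SE 0.22), both calcium-binding S100 genes, were called higher in primary cells at 48 h, beside 5.11% of all features. S100a9, a calprotectin subunit, was low at 24 h without passing, at -1.45 in primary cells (limma adjusted p = 0.0704) and -1.11 in the ras cultures. The group of fatty acid binding genes around Fabp5 holds 7 RefSeq genes, of which Fabp9 and Fabp4 were measured beside it, and neither was called in a late group.

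**Figure D4:**
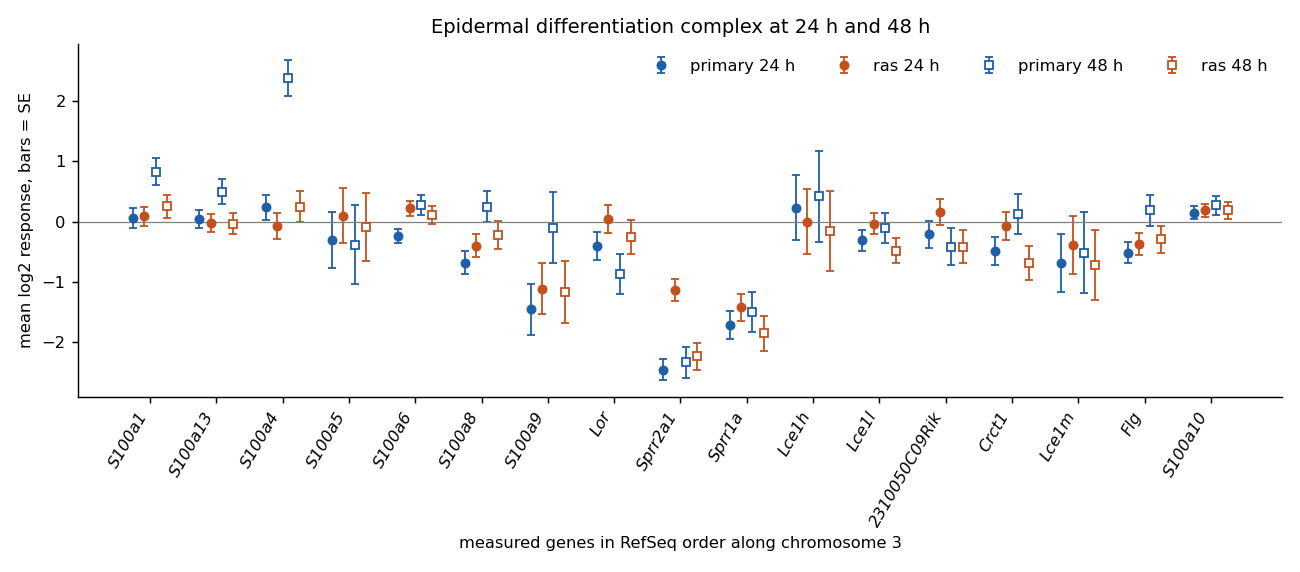
Mean log2 ratio of the measured genes of the epidermal differentiation complex, placed in RefSeq gene order and not by distance, in the 4 late Balb/c groups, with bars of 1 SE. Sprr2a1 and Sprr1a have the lowest means in each group, followed by S100a9 in 3 of the groups (-1.11 in ras cells at 24 h, beside -1.13 for Sprr2a1), and 0 of the 15 other genes is called lower.

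Plec, which encodes plectin and was the other plakin measured, read 0.05, -0.21, 0.31 and 0.30 in primary 24 h, ras 24 h, primary 48 h and ras 48 h. Among 11 genes of plakins, desmosomes and their keratins, 1 was called lower in primary cells at 24 h, beside 1.01% of all features: Pkp1, a desmosomal plaque gene (-0.71, SE 0.18). In ras cells at 24 h the desmosomal cadherin gene Dsg2 was called lower (-1.64, SE 0.52) and Krt8, a keratin of simple epithelia, higher (1.16, SE 0.32), beside 6.67% and 3.84% of all features. In primary cells at 48 h the keratin genes Krt16 (-1.18) and Krt15 (-1.02) were called lower, beside 3.49% of all features, and in ras cells at 48 h there was 0 in each direction. Calls in both directions occurred among these genes, with Krt8 the only one called higher. Ppl itself was below 0 on average in all 4 groups, which follows from its choice by these ratios.

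The fatty acid binding family gave a mixed picture around Fabp5. In the order primary 24 h, ras 24 h, primary 48 h and ras 48 h, the mean ratios of Fabp4, the adipocyte form, were -0.72, -0.49, -0.23 and -0.69, and those of Fabp7, the brain form, -0.05, 0.17, 0.17 and -0.35. Fabp1, the liver form, read 0.05, -0.63, -1.05 and -0.54, and Fabp9 read 0.23, -0.52, -0.60 and -0.65. Fabp2, the intestinal form, read -0.09, -1.10, -0.19 and -0.60. The value of -1.10 was the one call among these Fabp genes, beside 6.67% of all features called lower in that group. The retinoic acid carriers differed. Crabp1 read 0.53, 0.76, 2.42 and 0.71. It was called higher in ras cells at 24 h and in primary cells at 48 h, beside 3.84% and 5.11% of all features. Crabp2 read -0.84, -0.48, 0.72 and -0.62 without a call. Of the 21 list genes for fatty acid binding and lipid handling, Dbi, the acyl-CoA binding protein, and Slc27a4, a fatty acid transporter, were called lower in primary cells at 24 h, at -1.04 and -0.85, beside 1.01% of all features. Plin2, a lipid droplet coat gene, was called higher in ras cells at 6 h (0.56) and at 24 h (0.44). Of all features, 1.73% were called in either direction at 6 h and 3.84% were called higher at 24 h.

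Transcription factors of epidermal differentiation, 20 of them measured, had calls towards lower values and 0 towards higher ones in the Balb/c groups. Klf5, a factor of proliferating epithelium, fell already at 6 h, at -0.90 in primary cells (SE 0.16, limma adjusted p = 0.0111) and at -0.60 in ras cells (SE 0.16, adjusted p = 0.0344). It was called in primary cells at 24 h (-0.88) and 48 h (-1.19) as well, beside 1.01% and 3.49% of all features called lower. At 6 h the shares of all features called were 0.0112% in primary and 1.73% in ras cells. In ras cells at 24 h Grhl1 (-0.74) and Klf4 (-0.48), factors of the differentiating layers, were called, beside 6.67% of all features called lower. In primary cells at 24 h they read -0.26 and -0.51 without a call. At 48 h 7 of 20 were called lower in primary cells, beside 3.49% of all features, with the 6 lowest Rara (-1.97), Klf5, Trp63 (-1.01), Gata3 (-0.98), Rxra (-0.98) and Grhl1 (-0.80), and then Klf4 (-0.73). In ras cells at 48 h it was Grhl1 alone (-0.85), beside 1.61% of all features.

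Markers of other skin cells moved in primary cells at 48 h. Of 8 fibroblast markers 3 were called higher there, beside 5.11% of all features: Col1a2 at 1.83, Mfap5 at 1.77 and Twist1 at 1.28. The mean over the 8 was 0.60 to 0.92 on the 3 arrays, and 0 were called in the other 7 Balb/c groups. Of 10 immune markers Lyz2, the lysozyme of myeloid cells, was called higher in all 4 late groups, at 0.91 and 0.54 at 24 h and 2.59 and 0.96 at 48 h. The shares of all features called higher in these groups were 0.348%, 3.84%, 5.11% and 1.9%. In primary cells at 48 h Tyrobp (1.01) and Fcer1g (0.77) were higher and Cd8a lower (-1.75), beside 3.49% of all features called lower. In ras cells at 24 h Itgam was lower (-2.03), beside 6.67% of all features. No melanocyte or endothelial marker of 6 was called. The part of these markers in the ratios of the 4 genes was not tested. In primary cells at 24 h the mean over the fibroblast list ran from -0.58 to 1.45 on the arrays.

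Across the 45 Balb/c Cy5 arrays the ratios of the 4 genes were positively correlated, a description that mixes times and cultures. The genes were chosen by their low ratios at the late times. A positive correlation over early and late arrays together follows from that choice, so nothing is read from it. The Spearman correlation was highest for Sprr2a1 with Sprr1a (0.82) and for Ppl with Fabp5 (0.79), and between 0.64 and 0.71 for the other pairs. After the mean of each group was taken off, it was 0.30 and 0.47 for those pairs and between -0.04 and 0.11 for the rest. Within groups the 4 genes therefore did not all move together. Genes on one array share its hybridisation and its spread.

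The named genes most like each of the 4, by Spearman correlation over these 45 arrays, overlapped from gene to gene. For Sprr2a1 they were Endou (0.86), an endoribonuclease gene, Sprr1a (0.82), Ly6d (0.76), a surface antigen of keratinocytes, Il1f5 (0.74) and Wnt4 (0.73). For Sprr1a they were Sprr2a1, Il1f5 (0.74), Fam25c (0.71), Endou (0.69) and Tmem54 (0.69). For Ppl they were Fabp5, Fam162a (0.75), Urah (0.74), Il1f5 (0.72) and Sprr2a1 (0.71), and for Fabp5 they were Fam162a (0.81), Ppl, Il1f5 (0.73), Urah (0.68) and Sprr2a1 (0.67). Endou had mean ratios of -1.62 and -0.85 in primary and ras cells at 24 h and -1.33 and -1.17 at 48 h. On the 5 Cy3 Balb/c arrays Endou (0.35, 0.97, 2.71, 1.25 and 1.77) and Il1f5 (0.21, 1.66, 2.33, 0.45 and 0.46) were above 0 as well, in the array order given for the 4 genes. The 11 TGF-β target genes did not all have the opposite sign there: 1, 3, 6, 2 and 6 of them were above 0 on these arrays, with medians of -0.73, -0.21, 0.12, -0.53 and 0.02. On the knockout Cy3 arrays 10 and 8 of the 11 were above 0.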

How the data were processed

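The series holds 56 arrays of 9596 probes, and the deposited table gives a log ratio for each probe without gaps, taken here as log2. How the authors scanned, corrected and normalized them, and the log base, is not given in the sources used here. Array medians lay between -0.146 and 0.02. Per the labels, Cy5 marked the treated RNA on 49 arrays, Cy3 on the other 7. Symbols came from the platform annotation (7486 probes with 1 symbol, 483 with several, 1627 with none, 7395 matched to RefSeq, assembly GRCm38.p6). Array medians were set to 0, and probes sharing 1 symbol averaged, giving 8905 features and 6795 named genes. The 49 Cy5 arrays were fitted together with limma 3.58.1 in R 4.3.3 (lmFit, eBayes, two-sided), with Benjamini-Hochberg adjustment over the 8905 features and calls at an adjusted p under 0.05. The scripts were tested on simulated data. Alternatives covered array weights, scaling, centring, blocks, the Cy3 arrays, the arrays fitted and each array left out.

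The 4 genes and the gene lists were chosen with earlier results of these data known. The genes named are the 4 members, every measured gene of their families, the called genes of the other lists (at most the 6 largest each way), and the 5 named genes with the highest Spearman correlation for each member. Lor, Flg, S100a9 and, beyond the limit of 6, Klf4 in primary cells at 48 h were named after their values were seen. Of the keratinocyte markers, 6 were measured. Itgb4 was called higher in ras cells at 24 h (0.51), beside 3.84% of all features. Trp63 was called lower in primary cells at 48 h, beside 3.49% of all features. Replicate numbers did not pair the samples: of 19 same-numbered pairs of primary and ras arrays 5 had deviations correlated over 0.1, with a range from -0.232 to 0.39. Figures were drawn with matplotlib 3.10.9 in Python 3.11.15.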

Additional observations from a re-analysis of the deposited data

Results flagged for a closer look

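Of 28 groups of 4 to 7 arrays checked for the 4 genes, 2 held a value far from the rest, and chance gives about 1 in 20. Sprr2a1 read 0.56 on primary 1 h replicate 5, while the next highest array read 0.09. That gap was 0.683 of the group's range, past the critical value for 6 arrays. Sprr1a read -0.16 on ras 24 h replicate 6, while the next read -1.51, a gap of 0.836 of the range, past the same value.

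The response of Sprr2a1 at 24 h differed between ras and primary cells by 1.32 on the log2 scale in the fitted contrast. The gene was chosen by these ratios, so this is a description.

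The Cy3 Balb/c arrays, which no test used, held values far above those of the Cy5 arrays. As deposited, the highest were 4.21 for Sprr2a1, 3.09 for Sprr1a, 2.06 for Ppl and 3.46 for Fabp5, against a highest Cy5 value of 0.031 over the 4 genes in the same groups.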

How the results depend on the processing

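With the Cy3 arrays added as deposited, the primary 48 h means became 0.04 for Sprr2a1, 0.11 for Fabp5, -0.04 for Ppl and -0.16 for Sprr1a, the ras 48 h means -1.14, -1.23, -0.46 and -0.94 in that order, and the Fabp5 mean in ras cells at 24 h -1.12. The 48 h ras minus primary differences became -1.18 for Sprr2a1 and -0.42 for Ppl, the 48 h minus 24 h differences in ras cells 0.16 for Ppl and 0.0031 for Sprr1a, and the knockout minus wild type difference of Sprr2a1 -0.01. With their sign turned and no dye term, a choice made after seeing the data, the ras minus primary difference of Fabp5 at 48 h was 0.04, the knockout minus wild type difference of Sprr2a1 -0.25 and the Ppl mean in primary cells at 48 h -1.31. Scaling moved Ppl to -1.26 and -0.92 in primary cells at 24 and 48 h and the 48 h ras minus primary difference of Sprr2a1 to -0.17. Array weights gave -0.09 for that difference, -0.12 for Sprr1a at 24 h and -0.00008 for Sprr1a in primary cells at 1 h. With the replicate block the pair of 48 h differences nearest 0 turned, to -0.0034 for Sprr2a1 (ras minus primary) and 0.01 for Ppl (48 h minus 24 h, ras), and no call of a member changed. Leaving out 1 array turned Fabp5 ras minus primary at 48 h (-0.96 to 0.14), Ppl 48 h minus 24 h in ras cells (-0.13 to 0.16), Ppl in primary cells at 1 h (-0.05 to 0.19), Sprr1a ras minus primary at 24 h (-0.08 to 0.44), Sprr2a1 in primary cells at 1 h (-0.01 to 0.13, or -0.0082 at the low end) and Sprr2a1 ras minus primary at 48 h (-0.31 to 0.38).

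Of the 4 genes, the number called in ras cells at 6 h was 3 with array weights, 2 with the compared groups only, and 1 with scaling or without the 2 widest arrays. For knockout minus wild type it was 1 with array weights. For ras minus primary at 24 h it was 0 with the compared groups only, without the 2 widest arrays, and with the Cy3 arrays as deposited or turned without a dye term, and 0 to 1 with 1 array left out. The other cornified envelope genes called lower numbered 7 with array weights, 5 with the Cy3 arrays turned and a dye term, 5 without the widest arrays, 1 with the Cy3 arrays as deposited and 0 with the compared groups only in primary cells at 24 h. They numbered 6 with array weights, 0 with the compared groups only, and 1 with scaling, the replicate block, the Cy3 arrays as deposited or the widest arrays left out in ras cells at 24 h. At 48 h they numbered 0 with the compared groups only in both cultures, 1 (primary) and 0 (ras) with the Cy3 arrays as deposited, and 1 in ras cells with a random block of neighbouring array numbers. With 1 array left out they numbered 1 to 5 in primary cells at 24 and 48 h, 1 to 4 in ras cells at 24 h and 1 to 3 in ras cells at 48 h. The cause of these changes was not tested.

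No centring, robust eBayes and every probe on its own changed no direction and no call of the 4 genes. For the last 2 the direction could not change. Robust eBayes leaves the estimates as they are, and each gene had 1 probe. The filter on missing values had nothing to remove, and the lone Smad3 arrays could not be left out or fitted without other groups.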
